A study of Mus musculus with 6 samples.

Results

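Macrophages in tumours can take up lipid, store it in droplets and burn it, and 10 genes that act along this route were followed here in RNA from F4/80+ cells of mouse liver tumours. The genes were Lpl, Angptl4, Cd36, Vldlr, Fabp4, Fabp5, Plin2, Dgat1, Lipa and Pparg. They were taken as a named set by symbol, and each symbol matched 1 row of the 55401 rows in the gene table. All 10 passed the filter on low counts, which kept 18277 genes. The first group, Sms-OE, held 3 libraries of F4/80+ cells from tumours grown from Hepa 1-6 cells, a mouse hepatoma line, in which Sms had been overexpressed with a lentivirus. Sms encodes spermine synthase, the enzyme that makes the polyamine spermine. The second group, control, held 3 libraries from tumours of Hepa 1-6 cells labelled WT Control. In both groups the line had been placed in the right liver lobe, the tumours were taken 14 days later, and the mice received no further treatment. The altered gene was therefore in the injected cells and not in the sorted ones. Strain, sex and age of the mice, the number of clones in the overexpressing line and the number of mice per library are not given in the labels, and the p-values below therefore cover the variation among these 6 libraries, which may be partly technical.

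As background, lipoprotein lipase (Lpl) cuts triglyceride in circulating lipoproteins and releases fatty acids, and Angptl4 inhibits it. Fatty acids and lipid particles enter through proteins such as Cd36 and the VLDL receptor (Vldlr), and the fatty acid binding proteins Fabp4 and Fabp5 carry fatty acids inside the cell. Dgat1 joins the last fatty acid onto diacylglycerol to make triglyceride, Plin2 coats the droplet that stores it, and Lipa, lysosomal acid lipase, hydrolyses the cholesteryl esters and triglycerides of engulfed particles. Pparg, a nuclear receptor activated by fatty acids, binds DNA with an RXR partner and is known to drive genes of lipid uptake and storage.

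Libraries held 49833764 to 51123047 estimated counts in Sms-OE and 51583985 to 58154006 in control, so 1 CPM (a count scaled by library total and TMM factor) stood for 48.0 to 59.9 counts. Sms stood at 32.9, 33.2 and 33.2 CPM in Sms-OE and at 26.0, 28.3 and 26.2 CPM in control, without overlap. It averaged 33.1 ± 0.15 CPM in Sms-OE and 26.9 ± 1.3 CPM in control (mean ± SD, n = 3 each), and passed an edgeR quasi-likelihood test (adjusted p = 0.0382). That call was lost when any 1 of the 6 libraries was left out (adjusted p between 0.0719 and 0.122). Sms-OE replicates 2 and 3 stood apart by haemoglobin RNA, with 0.485% and 0.512% of counts against at most 0.0225% in the other 4 libraries. The mitochondrially encoded share was 2.15% to 3.12% in Sms-OE and 4.99% to 7.13% in control.

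The labelled cell type was checked on markers. All 12 general macrophage markers were present, with summed levels of 7646 to 8816 CPM in Sms-OE and 7373 to 7872 CPM in control (2 higher, 2 lower). Adgre1, which encodes the sorted antigen F4/80, was 570 ± 78 CPM in Sms-OE and 449 ± 105 CPM in control (adjusted p = 0.16, edgeR). Neutrophil markers were present too, at 6243 to 7875 CPM in Sms-OE and 6901 to 9157 CPM in control, and 1 of 10 was called higher. Lpl, Fabp4 and Pparg are also adipocyte genes. Of 9 adipocyte markers, Plin1 and Lep had a count of 0 in every library, which allows up to 0.0625 CPM in a library, and Adipoq, Cidec, Cfd and Adig stayed under 1 CPM. The adipocyte sum, most of it from Lipe, was 50.7 to 75.1 CPM in Sms-OE and 58.4 to 64.9 CPM in control.

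Several other marker lists moved between the groups. Kupffer cell markers were higher, with sums of 730 to 846 CPM in Sms-OE and 431 to 496 CPM in control, and 10 of 12 rose while 1 fell. Hepatocyte markers were lower, with sums of 403 to 619 CPM in Sms-OE and 863 to 1196 CPM in control, and 13 of 15 fell. Dendritic cell markers summed to 87.1 to 109 CPM in Sms-OE and 150 to 173 CPM in control (4 of 10 lower, 1 higher). Endothelial markers summed to 125 to 165 CPM in Sms-OE and 162 to 188 CPM in control (9 of 14 lower, 1 higher). Their median log2 fold change was -1.13, a larger fall than the sums show. Cdh5 is on both the endothelial and the Kupffer cell list. Stellate cell and fibroblast markers summed to 113 to 152 CPM in Sms-OE and 78.9 to 97.7 CPM in control, with 4 of 9 tested markers higher. Hepatoma markers, which include Spp1, a gene macrophages also express, summed to 184 to 339 CPM in Sms-OE and 162 to 183 CPM in control (1 of 6 tested higher, 2 lower, with Igf2 and Dlk1 at 0). B cell markers summed to 112 to 139 CPM in Sms-OE and 139 to 164 CPM in control (none of 6 called), and T and NK cell markers to 660 to 875 CPM in Sms-OE and 561 to 854 CPM in control (1 of 12 higher). Erythroid markers summed to 216 to 5050 CPM in Sms-OE and 43.2 to 189 CPM in control (none of 5 tested called). The part of these cell types in the results below was not tested, and in such pooled RNA fewer cells of a type and less RNA per cell cannot be told apart.

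**Figure D1:**
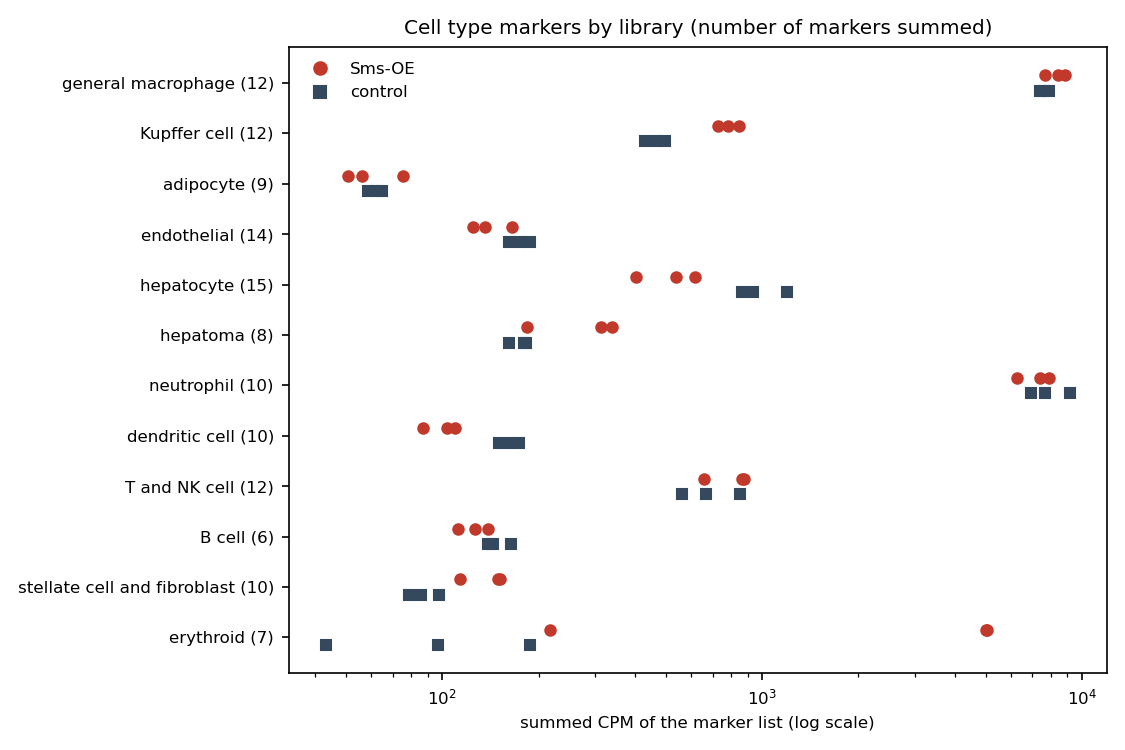
Summed CPM (horizontal, log scale) of each marker list in each library, with red circles for Sms-OE and dark squares for control, 3 libraries each. Kupffer cell sums lie higher in Sms-OE (730 to 846 against 431 to 496 CPM), while hepatocyte and dendritic cell sums lie lower in Sms-OE.

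The 10 genes differed widely in abundance. Per kilobase of merged exon, Dgat1 stood highest, at 206 ± 30 CPM per kb in Sms-OE and 163 ± 22 CPM per kb in control (SD, n = 3 each). Its 6 libraries, from 138 to 237 CPM per kb, lay above every library of the other genes. Plin2 followed, at 106 ± 6.2 CPM per kb in Sms-OE and 70.5 ± 1.7 CPM per kb in control. Fabp5 came next by its mean, with libraries from 24.0 to 74.2 CPM per kb. These overlapped the lowest of Plin2 (68.9) and the highest of Lpl (39.5) and Cd36 (30.1). Lpl, Cd36 and Lipa formed a middle group whose ranges over libraries overlapped, at 9.50 to 39.5, 9.49 to 30.1 and 14.0 to 18.1 CPM per kb. Pparg (2.28 to 4.56 CPM per kb) and Fabp4 (0.964 to 2.37 CPM per kb) were lower and overlapped at their edges. Angptl4 (0.438 to 0.932) and Vldlr (0.0766 to 0.273) were the lowest, in CPM per kb, and did not overlap each other. Merged exons can be longer than the transcript in use, which lowers such a level. For Lpl they span 10478 bases, against 4115 for its longest transcript, and for Fabp5 3567 against 3238. The order of Lpl and Fabp5 therefore depends on the length used.

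Across all tested genes, 26.9% passed an adjusted p under 0.05, 12.5% higher and 14.3% lower in Sms-OE. Of the 10 lipid genes, 4 fell (Lpl, Fabp4, Fabp5 and Pparg), 1 rose (Plin2) and 5 did not pass (Cd36, Vldlr, Angptl4, Dgat1 and Lipa). Groups that did not overlap were found for 6 of the 10, 5 lower and 1 higher, against 44.1% of all tested genes (20.8% higher, 23.3% lower). The median log2 fold change, Sms-OE minus control, was -0.40 over the 10 genes and -0.00060 over all genes tested. The 10 genes were chosen with earlier results of these data known, so these counts and medians are descriptions only. Scaled by library size only, 2521 genes passed as higher and 1788 as lower, against 2293 and 2615 with TMM factors, and without control replicate 2 the numbers were 1366 and 1684. Leaving out the haemoglobin-rich Sms-OE replicates 2 and 3 was an alternative chosen after seeing the data, and it leaves 1 Sms-OE library. The log2 fold changes were then -1.61 for Lpl, -0.84 for Fabp5, -0.86 for Fabp4, -0.45 for Pparg and 0.66 for Plin2.

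**Figure D2:**
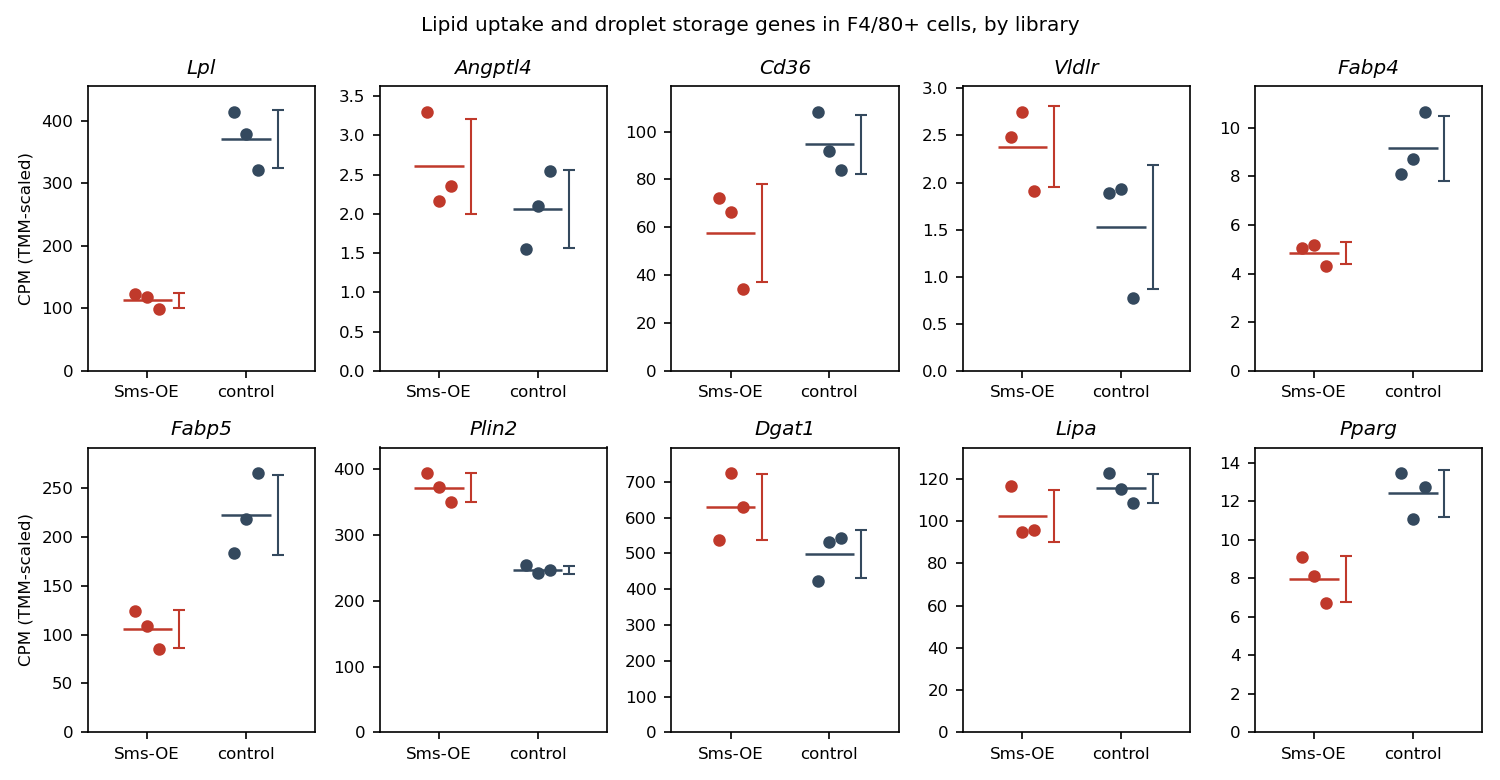
CPM of each of the 10 genes (vertical, linear from 0) in the 3 Sms-OE libraries, in red, and the 3 control libraries, in dark blue; lines are group means and bars at the side ± 1 SD. Lpl lies at 99.5 to 122 CPM in Sms-OE and at 322 to 414 CPM in control, while Plin2 lies higher in every Sms-OE library.

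Lpl had the largest change of the set and was 3.28-fold lower in Sms-OE. Its values were 122, 118 and 99.5 CPM in Sms-OE, against 414, 378 and 322 CPM in control. The highest Sms-OE library lay far below the lowest control library. The log2 fold change was -1.71 ± 0.12 (SE; adjusted p = 8.9e-05, edgeR quasi-likelihood). Lpl (ENSMUSG00000015568) lies on chromosome 8, 68880491 to 68907448, on the plus strand in GRCm38, the build of all coordinates given here. Leaving out each library in turn gave log2 fold changes of -1.82 to -1.63, and without Sms-OE replicates 2 and 3 the value was -1.61.

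Angptl4, the secreted inhibitor of lipoprotein lipase, (chromosome 17, 33773750 to 33781830, minus strand) was low and did not pass. It stood at 3.30, 2.17 and 2.36 CPM in Sms-OE and at 1.55, 2.09 and 2.54 CPM in control, and the groups overlapped. Its log2 fold change was 0.34 ± 0.29 (SE, adjusted p = 0.431 by edgeR's test), and at these levels each value rests on 93 to 174 counts. It was 0.13 without Sms-OE replicate 1, 0.17 without control replicate 1 and 0.67 without both haemoglobin-rich libraries, and passed in none of these.

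The receptors gave no call. Cd36, a scavenger receptor that carries long-chain fatty acids and binds oxidised lipoproteins (chromosome 5, 17781690 to 17888801, minus strand), stood at 72.4, 66.4 and 34.1 CPM in Sms-OE and at 108, 91.8 and 83.9 CPM in control. All Sms-OE values lay below all control values, but Sms-OE replicate 3 lay far below the other two. The log2 fold change was -0.72 ± 0.26 (adjusted p = 0.0821, edgeR). Cd36 passed without Sms-OE replicate 3 (-0.45, adjusted p = 0.0363) and without Sms-OE replicate 1 (-0.92, adjusted p = 0.0483). It also passed with the DESeq2 Wald test (adjusted p = 0.0094) and with limma-voom plus sample quality weights (adjusted p = 0.0229), and without both haemoglobin-rich libraries it gave -0.39 (adjusted p = 0.168). Vldlr, which takes up triglyceride-rich lipoproteins (chromosome 19, 27216484 to 27254231, plus strand), was low, at 2.48, 2.75 and 1.91 CPM in Sms-OE and 1.89, 1.93 and 0.771 CPM in control. Control replicate 3 was lowest, the groups overlapped, and the log2 fold change of 0.63 ± 0.37 did not pass (adjusted p = 0.237, edgeR). It was 0.31 without control replicate 3 and 0.39 under length and GC offsets.

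Both fatty acid carriers fell. Fabp5, the epidermal-type carrier that macrophages also make (chromosome 3, 10012548 to 10016607, plus strand), stood at 124, 108 and 85.7 CPM in Sms-OE and at 183, 218 and 265 CPM in control. The groups were well apart, and Fabp5 was 2.09-fold lower in Sms-OE (log2 -1.06 ± 0.16, adjusted p = 0.0016 by edgeR's test). Fabp4, the adipocyte-type carrier on the same chromosome (10204088 to 10208576, minus strand), stood at 5.06, 5.16 and 4.33 CPM in Sms-OE and at 8.08, 8.70 and 10.6 CPM in control. No Sms-OE library reached the lowest control library, and Fabp4 was 1.88-fold lower (log2 -0.91 ± 0.18, adjusted p = 0.0052, edgeR). Without Sms-OE replicates 2 and 3, Fabp4 gave -0.86 with an adjusted p of 0.0833. Within a library, Fabp5 counts were 21.8 ± 2.5 times the Fabp4 counts in Sms-OE and 24.2 ± 1.3 times in control (SD, n = 3 each), and the groups overlapped. Endothelial cells also express Fabp4 and Cd36, and the endothelial sums given above were lower in Sms-OE apart from a small overlap.

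Plin2, which coats lipid droplets (chromosome 4, 86648386 to 86670060, minus strand), was the only one of the 10 that passed as higher. It stood at 394, 373 and 350 CPM in Sms-OE and at 254, 242 and 247 CPM in control. The groups lay far apart and the control libraries were close together. Plin2 was 1.5-fold higher, with a log2 fold change of 0.59 ± 0.087 (SE; adjusted p = 0.0015, edgeR quasi-likelihood). Leaving out each library gave 0.54 to 0.63, and with offsets for transcript length and GC content, fitted together with a replicate block, the value was 0.83. The ratio of Plin2 to Lpl counts, which does not depend on the scaling between libraries, was 3.22, 3.17 and 3.52 in Sms-OE and 0.613, 0.640 and 0.767 in control. All 3 Sms-OE ratios lay above all control ratios. This follows from Plin2 lying apart as higher and Lpl as lower, and is no separate evidence.

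Dgat1, the acyltransferase that completes triglyceride (chromosome 15, 76502015 to 76511953, minus strand), stood at 538, 724 and 630 CPM in Sms-OE and at 422, 532 and 542 CPM in control. The lowest Sms-OE value lay between the 2 highest control values. The log2 fold change was 0.34 ± 0.14 and did not pass (adjusted p = 0.0923, edgeR). It passed without Sms-OE replicate 1 (0.43, adjusted p = 0.0439), scaled by library size only (0.40, adjusted p = 0.0229), with offsets for length and GC content (0.48, adjusted p = 0.0275) and with the DESeq2 Wald test (0.36, adjusted p = 0.0390). Without both haemoglobin-rich libraries it gave 0.10 (adjusted p = 0.747).

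Lipa, the lysosomal acid lipase (chromosome 19, 34492318 to 34527474, minus strand), stood at 117, 94.9 and 96.0 CPM in Sms-OE and at 123, 115 and 108 CPM in control. The groups overlapped through Sms-OE replicate 1, and the log2 fold change of -0.17 ± 0.10 did not pass (adjusted p = 0.244, edgeR). Without Sms-OE replicate 1 it was -0.28 (adjusted p = 0.0553, edgeR), and without both haemoglobin-rich libraries 0.0092.

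Pparg (chromosome 6, 115360951 to 115490399, plus strand) was 1.56-fold lower in Sms-OE. It stood at 9.10, 8.13 and 6.72 CPM in Sms-OE and at 13.5, 11.1 and 12.7 CPM in control, with no overlap. Its log2 fold change was -0.64 ± 0.16 (adjusted p = 0.0167, edgeR). The call was lost without Sms-OE replicate 3 (adjusted p = 0.0574), without control replicate 1 (adjusted p = 0.0593) and under length and GC offsets (-0.42, adjusted p = 0.0759), and was not made without both haemoglobin-rich libraries (-0.45, adjusted p = 0.214). An antisense gene, Gm44079, overlaps Pparg and had a count of 0 in every library.

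**Figure D3:**
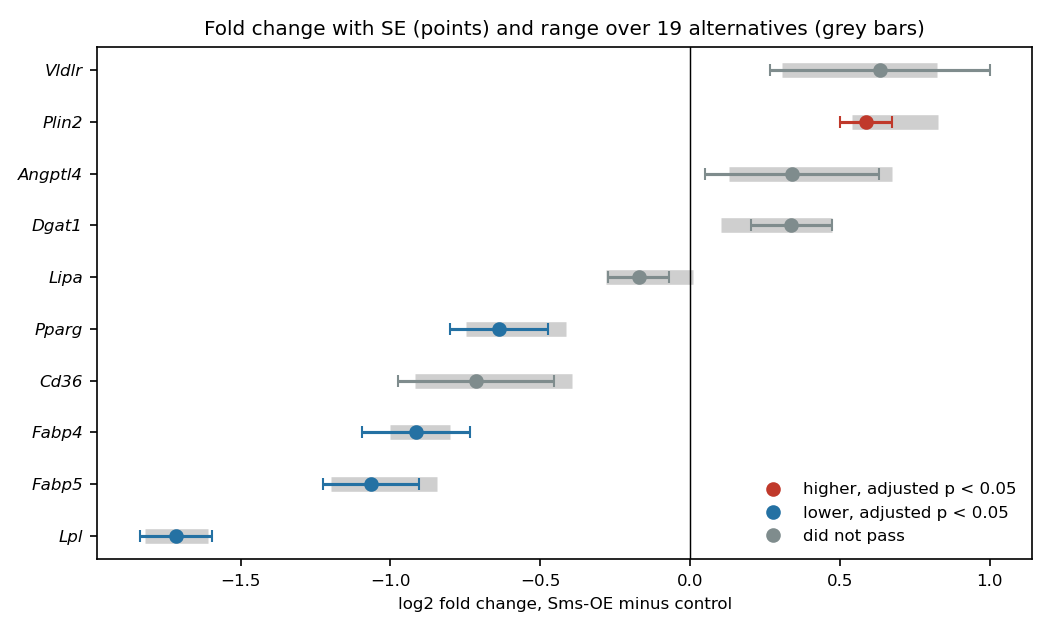
Log2 fold change of each gene, Sms-OE minus control (horizontal), with points ± SE coloured by call and grey bars for the range over 19 alternative settings. Lpl, Fabp5 and Fabp4 stay below -0.80 and Plin2 above 0.54 in all of them, while Lipa reaches 0.0092.

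Promoter windows of Plin2, Cd36 and Pparg are shown because Plin2 rose, Pparg fell and Pparg protein is known to act on Cd36. Each is 1 RefSeq start in GRCm38.p6, with 250 bases before and 50 bases after it. Capitals mark AGGTCA, the half-site that nuclear receptors of the PPAR and RXR type read, on either strand (TGACCT on the other), and in Plin2 also CACGTG, a palindrome read by basic helix-loop-helix factors.
Plin2, chr4:86670010-86670309, minus strand: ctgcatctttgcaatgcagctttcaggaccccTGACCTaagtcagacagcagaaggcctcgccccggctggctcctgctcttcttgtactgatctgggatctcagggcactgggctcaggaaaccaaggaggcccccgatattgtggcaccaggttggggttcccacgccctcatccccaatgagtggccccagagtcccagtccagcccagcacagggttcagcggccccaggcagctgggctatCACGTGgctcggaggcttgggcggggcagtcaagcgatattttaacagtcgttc
Cd36, chr5:17835847-17836146, minus strand: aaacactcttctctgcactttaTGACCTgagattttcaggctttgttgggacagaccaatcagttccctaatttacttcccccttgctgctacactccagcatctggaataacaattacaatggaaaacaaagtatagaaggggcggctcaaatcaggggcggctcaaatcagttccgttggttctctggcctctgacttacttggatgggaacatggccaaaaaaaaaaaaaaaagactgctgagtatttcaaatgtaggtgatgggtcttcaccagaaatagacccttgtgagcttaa
Pparg, chr6:115360894-115361193, plus strand: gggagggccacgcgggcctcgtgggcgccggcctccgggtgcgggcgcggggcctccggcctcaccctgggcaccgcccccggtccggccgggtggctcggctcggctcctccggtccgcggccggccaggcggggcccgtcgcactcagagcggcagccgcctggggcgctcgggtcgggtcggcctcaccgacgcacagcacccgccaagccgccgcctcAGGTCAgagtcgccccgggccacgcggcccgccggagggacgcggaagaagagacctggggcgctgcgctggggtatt

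Windows were at hand for 5 of the 10 genes (Plin2, Cd36, Pparg, Vldlr and Lipa), 8 windows in all since Pparg had 3 and Vldlr 2. AGGTCA was present on either strand in 4 of the 8, at -218 in Plin2, at -228 in Cd36 and at -28 and -9 in the first and second Pparg windows, counted from the start to the match's first base on the gene's strand. It occurs in 16.3% of the 32851 windows of this length. For the PPAR and RXR site known as DR1, only the exact string was searched, AGGTCA repeated after 1 base of any kind (N). It was in none of the 8 and in only 13 (0.0396%) of all windows. Its absence therefore does not tell whether a PPAR site is there. CACGTG was in the Plin2 window, at -4, and in 7.15% of all windows. These matches describe letters in short windows, the Cd36 gene model extends further upstream than the window shown, and gene counts do not tell starts of 1 gene apart.

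The wider pathway was read from 8 lists of 126 genes, of which 125 were in the table and 108 passed the low-count filter. Of these, 19 were higher, 19 lower and 70 did not pass, with a median log2 fold change of 0.09. Over all tested genes, 12.5% passed as higher and 14.3% as lower. The counts of each list below are to be read against these shares. Without control replicate 2 the number lower was 11, and scaled by library size only it was 12. Without both haemoglobin-rich libraries 12 were higher and 9 lower.

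Among 18 partners of lipoprotein lipase and lipoprotein receptors, 5 rose and 4 fell (median 0.26). Apoc3, an inhibitor of lipoprotein lipase that hepatocytes secrete, was 0.148 ± 0.036 CPM in Sms-OE and 2.02 ± 0.80 CPM in control (adjusted p = 0.00057, edgeR). Gpihbp1, which holds the lipase on capillary endothelium and is named here after its values were seen, was 1.19 ± 0.52 CPM in Sms-OE and 5.06 ± 1.3 CPM in control (log2 -2.08 ± 0.34, adjusted p = 0.0022, edgeR). Gpihbp1 is also on the endothelial list, and of the sums given above the hepatocyte ones were lower in Sms-OE, while the endothelial ones overlapped through Sms-OE replicate 2. The median log2 fold change of the endothelial markers was -1.13. Sorl1, a sorting receptor of the LDL receptor family, rose 1.47-fold to 766 ± 7.8 CPM in Sms-OE, against 522 ± 13 CPM in control (adjusted p = 0.0019, edgeR). Under length and GC offsets its log2 fold change was 0.16, against 0.55 without them (adjusted p = 0.205), and the list then had 2 genes higher. Lrp1, a large endocytic receptor named after its values were seen, was 400 ± 55 CPM in Sms-OE and 249 ± 35 CPM in control (adjusted p = 0.0049, edgeR). Values of Lrp1 and Gpihbp1 under the alternatives are not given here. Whether Lrp1 was among the 2 genes higher under the offsets is therefore not shown.

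Of 16 tested genes of fatty acid uptake and activation, 2 rose and 1 fell (median 0.04). The number lower was 2 without Sms-OE replicate 1, Sms-OE replicate 3 or control replicate 3, and 3 with limma-voom plus sample quality weights. The number higher was 3 without Sms-OE replicate 1 or 3, scaled by library size only or with the DESeq2 Wald test. It was also 3 under length and GC offsets, with or without a replicate block, and with the filter of 1 CPM in 3 libraries. Slc27a1, the fatty acid transporter FATP1, rose 2.19-fold, at 15.3 ± 1.2 CPM in Sms-OE and 6.97 ± 0.57 CPM in control (adjusted p = 0.00067, edgeR). Cav1, caveolin 1, rose 3.34-fold at a low level, 7.19 ± 2.5 CPM in Sms-OE and 2.15 ± 0.70 CPM in control (adjusted p = 0.0045, edgeR). Dbi, which binds acyl-CoA, fell 1.88-fold, at 41.1 ± 3.7 CPM in Sms-OE and 77.2 ± 12 CPM in control (adjusted p = 0.00093, edgeR). Fabp7 and Fabp3, the other carriers above 1 CPM, did not pass. Fabp7, the brain-type carrier, was 5.60 ± 1.4 CPM in Sms-OE and 3.52 ± 0.59 CPM in control (adjusted p = 0.0633, edgeR), and it passed under length and GC offsets (log2 1.08, adjusted p = 0.0070). Fabp3, the heart-type carrier, was at 0.266, 2.31 and 3.63 CPM in Sms-OE, the 2 high values being the haemoglobin-rich libraries, and at 0.234, 0 and 0.458 CPM in control.

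Triglyceride and steryl ester synthesis had 5 of 14 genes higher and none lower (median 0.22), 2 lower under length and GC offsets, and 2 higher without both haemoglobin-rich libraries. Dgat2, the second diacylglycerol acyltransferase, rose 2.27-fold, at 71.3 ± 23 CPM in Sms-OE and 31.3 ± 4.2 CPM in control (adjusted p = 0.0064, edgeR). Counts of Dgat2 were 0.123, 0.134 and 0.0806 of those of Dgat1 in Sms-OE and 0.0632, 0.0608 and 0.0645 in control, so the groups did not overlap. Lpin2, a phosphatidate phosphatase, rose 1.64-fold to 82.1 ± 9.4 CPM in Sms-OE, against 50.01 ± 5.2 CPM in control (adjusted p = 0.0017). Soat2, which esterifies cholesterol, rose 1.54-fold to 18.8 ± 2.0 CPM, against 12.2 ± 0.42 CPM in control (adjusted p = 0.0061, both by edgeR's test).

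On the droplet itself, 2 of 11 tested genes fell and none rose (median 0.02; 1 rose without Sms-OE replicate 3 or under length and GC offsets). Plin3, another droplet coat protein, was 31.4 ± 5.2 CPM in Sms-OE and 44.5 ± 4.2 CPM in control (1.42-fold lower, adjusted p = 0.0191, edgeR). The ratio of Plin2 to Plin3 counts was 11.2, 11.1 and 13.7 in Sms-OE and 5.16, 5.66 and 5.95 in control, without overlap. It rests on the Plin2 counts already described and is no separate evidence. Rab18, a droplet GTPase, was 57.8 ± 3.1 CPM in Sms-OE and 70.2 ± 3.6 CPM in control (adjusted p = 0.0364, edgeR). Neither gene passed when scaled by library size only (adjusted p = 0.0509 for Plin3 and 0.127 for Rab18) or without both haemoglobin-rich libraries. The Plin3 call was lost without Sms-OE replicate 3 or control replicate 1, and the Rab18 call when any library except Sms-OE replicate 2 was left out.

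Of 12 genes of droplet lipolysis 1 rose and 3 fell (median 0.02; none rose without both haemoglobin-rich libraries). The carboxylesterases Ces1d and Ces1f, abundant in hepatocytes, were 0.512 ± 0.13 CPM and 0.0268 ± 0.046 CPM in Sms-OE, against 4.61 ± 0.67 CPM and 1.69 ± 1.3 CPM in control (adjusted p = 0.00019 and 0.0025, edgeR). Daglb, a diacylglycerol lipase, was 33.9 ± 5.0 CPM in Sms-OE and 54.6 ± 10 CPM in control (adjusted p = 0.0082, edgeR). Pnpla2, the main triglyceride lipase ATGL, named after its values were seen, stood at 143 ± 22 CPM in Sms-OE and 135 ± 4.3 CPM in control and did not pass (adjusted p = 0.65, edgeR). Of 12 lysosomal genes 2 rose and 2 fell (median 0.07; none fell without control replicate 2, and 1 without Sms-OE replicate 3, control replicate 1 or control replicate 3, scaled by library size only or under offsets). Without both haemoglobin-rich libraries 1 lysosomal gene rose and none fell. Gla, alpha-galactosidase A, rose 1.68-fold (197 ± 31 CPM in Sms-OE, 117 ± 6.9 CPM in control, adjusted p = 0.0017). The cholesterol exporters of the lysosome split: Npc1 was 72.1 ± 1.7 CPM in Sms-OE and 55.1 ± 3.9 CPM in control (adjusted p = 0.0087), and Npc2 440 ± 8.0 CPM in Sms-OE and 566 ± 11 CPM in control (adjusted p = 0.0115, all by edgeR's test; 0.0517 without control replicate 2).

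Among 9 tested relatives and partners of Pparg, 3 rose and 1 fell (median 0.20), but without control replicate 2, or without both haemoglobin-rich libraries, these were 1 and 0, and under length and GC offsets 1 rose. Ppard, the related receptor PPAR-delta, was 42.9 ± 2.8 CPM in Sms-OE and 30.4 ± 3.3 CPM in control (1.41-fold, adjusted p = 0.0086, and 0.0511 without control replicate 2, edgeR). The corepressor Ncor1 was 223 ± 3.9 CPM in Sms-OE and 151 ± 5.3 CPM in control (adjusted p = 0.0012, and 0.0661 under length and GC offsets, where its log2 fold change was 0.24 against 0.56, edgeR). The coactivator Ppargc1b was 6.15 ± 0.51 CPM in Sms-OE and 11.7 ± 3.3 CPM in control (adjusted p = 0.0119, and 0.0585 without control replicate 2, edgeR). Among 16 tested genes known as further PPAR targets, 6 fell and 1 rose (median -0.06). The number lower was 3 without control replicate 2 or scaled by library size only 2 with the offsets and 1 without both haemoglobin-rich libraries. The number higher was 2 scaled by library size only or with the offsets. None was higher when any library except Sms-OE replicate 2 was left out. The fatty acid oxidation enzymes Hadha, Ech1 and Acaa2 were 1.39-fold, 1.40-fold and 1.36-fold lower in Sms-OE (adjusted p = 0.0028, 0.0046 and 0.0085, edgeR), and with the offsets Ech1 and Acaa2 did not pass (log2 -0.21 and -0.17, adjusted p = 0.0836 and 0.236).

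**Figure D4:**
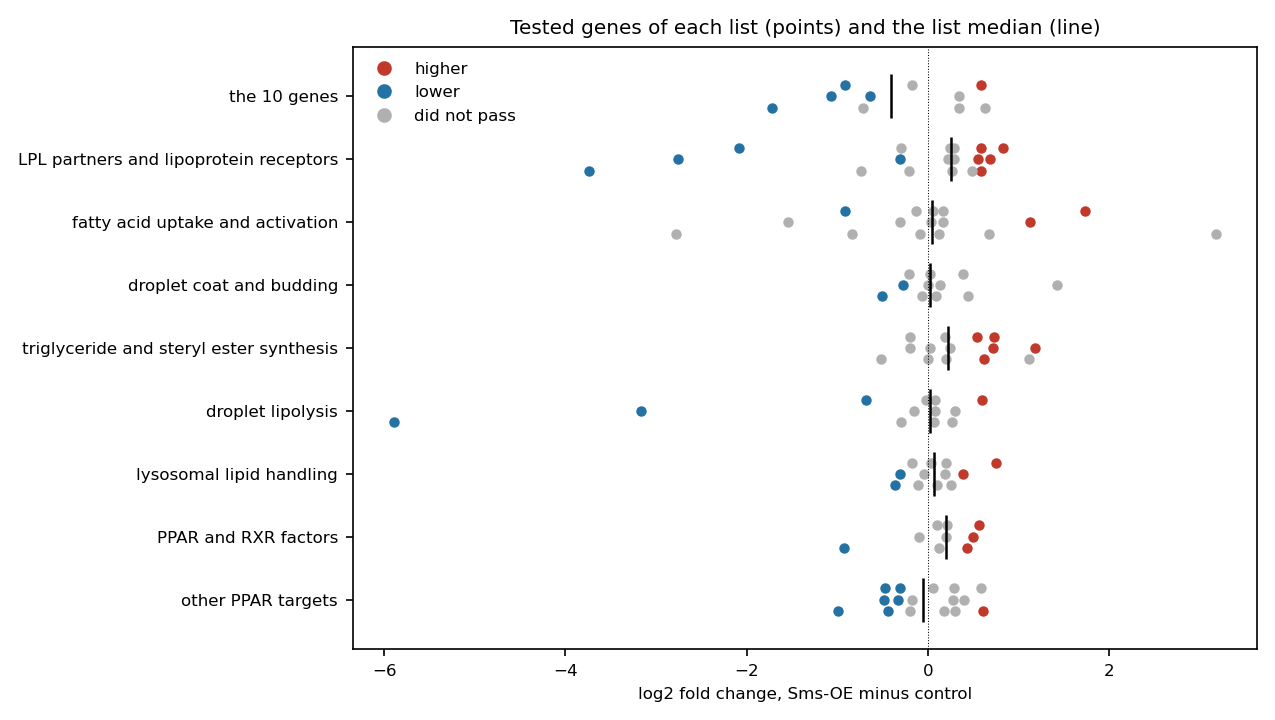
Log2 fold change, Sms-OE minus control (horizontal), of every tested gene of the 10-gene set (top row) and of the 8 pathway lists, coloured by call, with a line at each median. The set's median is -0.40, and those of the 8 lists lie between -0.06 and 0.26. Set and lists were chosen with earlier results of these data known.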

How the data were processed

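RNA-seq of F4/80+ cells was used for 3 Sms-OE and 3 control libraries. The deposited values are estimated counts per gene, written as whole numbers and not scaled. The submitters' processing notes name StringTie 2.1.6, HISAT2 2.2.1, FastQC 0.11.9, cutadapt 1.9 and DESeq2, with no role or order. Build, annotation, strand setting and the step that gave counts were not given in the sources used here, so counting error is uncertain. Per the labels' protocols, libraries were selected on oligo(dT) beads and made with dUTP and UDG. Symbols, coordinates and exon lengths came from GENCODE M21 (GRCm38) by identifier, for 55141 of 55401 rows. At most 17.3% of genes with counts had identical values in a pair of replicates.

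The test was edgeR 4.0.16 in R 4.3.3 (filterByExpr, TMM, robust glmQLFit, glmQLFTest; Benjamini-Hochberg over 18277 genes, threshold 0.05), with SE from the F statistic and fold changes at a prior count of 0.125. Counts were also simulated for Sms-OE against control, and 17697 genes passed the low-count filter there. Among them were 63, 61 and 65 genes changed by a log2 fold of 0.5, 1 and 2. Changed genes that the filter removed are left out of the rates. Of these, 12.7%, 55.7% and 76.9% were recovered, with unchanged genes making up 8% of calls. Far fewer genes were changed there than passed in the data (4908), and the adjusted p depends on that number, so these rates need not hold for the data. Promoter windows are RefSeq's (GRCm38.p6). Members and lists were chosen with earlier results of these data known. Named pathway genes were up to 3 past the threshold per list by smallest p, Fabp and Plin paralogs of at least 1 CPM, and for Lpl and Plin2 the 3 genes of highest Pearson correlation of log2(CPM + 0.5); some genes that these rules name are not reported here. Alternatives were other scalings (DESeq2 1.42.0 size factors, upper quartile, library size), low-count filters (none; a CPM of at least 1 in 3 libraries), tests (DESeq2 Wald, limma 3.58.1 with voom and sample quality weights together), no robust step, length and GC offsets (from genes whose mean log2 CPM exceeded 2), mitochondrial and haemoglobin rows removed, a replicate block, and left-out libraries.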

Additional observations from a re-analysis of the deposited data

How the results depend on the processing

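Lpl, Fabp5 and Plin2 kept direction and call under all 19 alternatives (log2 fold changes of -1.82 to -1.61, -1.20 to -0.84 and 0.54 to 0.83), and Angptl4 and Vldlr passed under none. Without Sms-OE replicates 2 and 3, which leaves 1 Sms-OE library that is assumed to vary like the controls, 1384 genes passed (690 higher, 694 lower), with 2 members lower, 12 pathway genes higher and 9 lower; Fabp4 gave -0.86, Pparg -0.45 and Lipa 0.0092, a change of sign. The number of members higher was 2 (Plin2 and Dgat1) with library size alone, the DESeq2 Wald test, the replicate block, the length and GC offsets and both of the last together, where Dgat1 gave 0.40, 0.36, 0.34, 0.48 and 0.47. Cd36 passed with the DESeq2 Wald test (-0.70), limma-voom plus sample quality weights (-0.81), the replicate block (-0.78) and the block with offsets (-0.63). Pparg was not called with the offsets (-0.42) or the block with offsets (-0.42). Library size alone gave 12 pathway genes lower. Leaving out 1 library gave 3050 to 4488 genes, 1366 to 2015 higher and 1684 to 2473 lower, 1 to 2 members higher and 3 to 5 lower, 15 to 19 pathway genes higher and 11 to 17 lower, and log2 fold changes of -0.92 to -0.45 for Cd36, 0.22 to 0.43 for Dgat1 and -0.75 to -0.53 for Pparg. The cause of these changes was not tested.

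Replicate numbers gave no clear sign of pairing. Deviations of same-numbered libraries from their group means correlated at 0.065, 0.020 and -0.0075, and not every library correlated best with its own number. With 3 libraries per group, such values cannot exclude a pairing. With the replicate block 4532 genes passed, against 4908.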

Other observations

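Fabp5 and Fabp4 lie in 1 cluster on chromosome 3, with Pmp2, Fabp9 and Fabp12 between or beside them (GRCm38, Fabp5 from 10012548 and Fabp12 to 10301183). Pmp2 and Fabp9 had a count of 0 in all 6 libraries, and Fabp12 had 6 counts in Sms-OE replicate 3 and 0 elsewhere.

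Of 9628 genes with a mean of at least 5 CPM, those whose log2 CPM followed Lpl most closely over the 6 libraries were Gfm1, a mitochondrial elongation factor, Cd83, a surface marker of mature dendritic cells, and Fam136a, with Pearson's r of 0.999 for each. Cd83 stood at 69.3, 63.2 and 56.2 CPM in Sms-OE and at 166, 153 and 140 CPM in control. For Plin2 they included Appbp2 and Ubr3, a ubiquitin ligase, with r of 0.997 and 0.995. These are descriptions over 6 libraries that share 2 group levels, chosen as the highest of many, and say nothing of shared control.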
